A study of Mus musculus with 24 samples.

Results

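Genes of mitosis and of the spindle checkpoint are described here in mouse mammary tumours treated with ORIN1001, docetaxel or the combination of both. The set held 39 genes, picked by name for their roles in cell division and found by Ensembl identifier among 53465 gene rows. All 39 passed the filter on low counts in every fit.

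The tumours were of 2153L, a p53 knockout mouse model of triple-negative breast cancer passaged by transplanting tumour fragments into cleared mammary fat pads of female BALB/c hosts aged 6 to 8 weeks. Tumours of every group, vehicle included, thus lacked p53 and came from 1 transplanted line, in hosts of an immunocompetent strain. Treatment began at a volume of about 100 mm3. The groups were ORIN1001, an inhibitor of the IRE1α ribonuclease given at 150 mg/kg by daily gavage; docetaxel, a taxane that stabilises microtubules, given at 10 mg/kg by weekly intraperitoneal injection; the combination of ORIN1001 and docetaxel; and vehicle, which mice on a single drug also received. Each group had 3 tumours, and each tumour gave a J2 library, from RNA pulled down with an antibody to double-stranded RNA, and an input library, from total RNA depleted of ribosomal RNA, making 24 libraries in 8 groups. Neither the length of treatment nor the interval after the last docetaxel dose is stated in the labels.

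Mitosis is run by Cdk1 with cyclins A and B, and the genes of this program are transcribed together late in the cell cycle, under B-Myb, FoxM1 and the MuvB core. The spindle assembly checkpoint (Bub1, Bub1b, Bub3, Mad2l1, Ttk) holds Cdc20 and the anaphase-promoting complex (APC/C) back until every kinetochore is attached to microtubules, after which securin (Pttg1) and cyclin B are degraded and separase (Espl1) cuts cohesin. Taxanes act on the spindle, so cells exposed to them can be held at this checkpoint.

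Promoters of such genes often carry the cell cycle genes homology region (CHR), read by MuvB complexes, near CCAAT boxes, read by NF-Y. RefSeq promoters (GRCm38.p6, 250 bases before to 50 bases after the start) were matched for 32 of the 39 genes, and 7 had no match (Aurkb, Ccna2, Cdc25c, Foxm1, Incenp, Kif20a, Tpx2). CHR letters (TTTGAA, or TTCAAA on the other strand) stood in 23 of the 32, or 71.9%, and in 17.9% of 32851 mouse promoters of the same length. CCAAT letters (CCAAT, or ATTGG on the other strand) stood in 24 of the 32, against 37.4% of all promoters, and 20 of the 32, or 62.5%, held both, against 6.95%. These shares count genes of the set with the motif in any promoter, while those of all mouse promoters count promoters. The set has 35 promoters, as 3 genes have 2. Counted by promoter, 26 of the 35 (74.3%) held CHR letters, 27 (77.1%) CCAAT letters and 23 (65.7%) both. The motifs shared a base in 1 of the 35. Neither was found in the windows of Birc5, Mad2l1, Nuf2, Nusap1 and Pttg1. A match of letters is a description and not a bound site. The promoters of 4 genes that passed the test between treatments in the input RNA, Cdc20 and Nuf2 only without docetaxel tumour 3, are shown, with CHR and CCAAT letters of either strand in capitals and each read 5′ to 3′ along its gene: Espl1 (chr15:102296043-102296342, plus strand), Ccnb2 (chr9:70421505-70421804, minus strand), Cdc20 (chr4:118437294-118437593, minus strand) and Nuf2 (chr1:169531415-169531714, minus strand).
Espl1: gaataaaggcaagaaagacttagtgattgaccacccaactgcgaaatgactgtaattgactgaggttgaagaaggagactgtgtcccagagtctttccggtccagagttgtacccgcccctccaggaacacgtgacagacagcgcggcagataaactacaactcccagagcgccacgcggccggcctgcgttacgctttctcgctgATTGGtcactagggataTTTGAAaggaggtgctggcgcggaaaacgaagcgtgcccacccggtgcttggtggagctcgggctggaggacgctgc
Ccnb2: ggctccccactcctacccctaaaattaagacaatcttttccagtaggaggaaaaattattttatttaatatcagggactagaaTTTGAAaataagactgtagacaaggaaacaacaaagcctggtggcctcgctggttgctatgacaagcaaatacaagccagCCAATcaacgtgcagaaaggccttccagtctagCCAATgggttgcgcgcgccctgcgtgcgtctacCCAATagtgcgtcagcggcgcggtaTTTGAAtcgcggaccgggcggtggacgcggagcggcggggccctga
Cdc20: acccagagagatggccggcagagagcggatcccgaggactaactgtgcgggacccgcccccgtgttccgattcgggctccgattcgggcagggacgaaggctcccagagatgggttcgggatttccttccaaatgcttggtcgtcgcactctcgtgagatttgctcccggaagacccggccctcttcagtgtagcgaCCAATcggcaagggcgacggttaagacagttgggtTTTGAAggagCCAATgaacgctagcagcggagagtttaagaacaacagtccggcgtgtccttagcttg
Nuf2: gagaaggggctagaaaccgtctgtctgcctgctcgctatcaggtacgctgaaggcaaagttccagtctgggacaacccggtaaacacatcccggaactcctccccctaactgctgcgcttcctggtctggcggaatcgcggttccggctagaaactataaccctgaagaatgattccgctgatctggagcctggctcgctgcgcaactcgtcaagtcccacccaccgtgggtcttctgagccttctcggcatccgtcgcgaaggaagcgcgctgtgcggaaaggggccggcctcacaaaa
The Espl1 window holds 1 CCAAT box, on the other strand, and 1 CHR, Ccnb2 holds 3 CCAAT boxes and 2 CHR, Cdc20 holds 2 CCAAT boxes and 1 CHR, and Nuf2 holds neither.

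Depth differed among libraries. Total gene counts were 25.4 to 45.0 M in ORIN1001 inputs, 3.27 to 63.3 M in docetaxel inputs, 11.9 to 15.7 M in combination inputs and 28.2 to 34.8 M in vehicle inputs. 1 input, of docetaxel tumour 3, was unlike the rest, with 70.5% of its counts at ribosomal RNA loci, 3239 counts over the 39 genes and 7.63% mitochondrial counts, so docetaxel results are given with and without this tumour. J2 libraries of the combination had 2.54, 4.69 and 11.04 M gene counts, with 23.1% to 58.9% of counts at ribosomal RNA loci, against 12.3 to 14.9 M and 4.22% to 6.18% in vehicle J2 libraries. The J2 library of docetaxel tumour 3 had 6.69 M, with 17.1% at these loci. Epithelial markers were abundant in all 12 inputs (Epcam, Krt8 and Krt18 at medians of 732, 376 and 352 CPM, TMM-scaled counts divided by the size of the library). The progesterone receptor gene Pgr had no count in 6 inputs and reached 10.45 CPM in another. The receptor genes Esr1 and Erbb2 had counts in every input, at medians of 12.57 and 181.1 CPM. B cell markers were at or near 0. Since these are bulk tumours, fewer dividing cells and less of an mRNA in each dividing cell cannot be told apart.

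In input RNA the summed level of the 39 genes, scaled by TMM, was 4665, 4874 and 4876 CPM in ORIN1001 tumours, 5520, 5506 and 4055 CPM in docetaxel tumours, 4996, 4521 and 4432 CPM in combination tumours and 4275, 5069 and 4338 CPM in vehicle tumours. Docetaxel tumours 1 and 2 lay above all other inputs and docetaxel tumour 3 below them, while the other groups overlapped.

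By role, the proliferation and chromosome markers overlapped between all 4 treatments. Mki67, the Ki-67 antigen, averaged 401 ± 34.0 CPM with ORIN1001, 429 ± 84.1 CPM with docetaxel, 354 ± 44.7 CPM with the combination and 369 ± 26.2 CPM with vehicle (SD, n = 3 tumours each). Top2a, the topoisomerase that untangles sister chromatids, averaged 806 ± 21.2 CPM with ORIN1001, 776 ± 242 CPM with docetaxel, 788 ± 95.7 CPM with the combination and 749 ± 104 CPM with vehicle. In docetaxel tumour 3 the genes did not move as a block: Mad2l1 stood at 390.6 CPM (312 counts) against 103.6 and 102.2 CPM in the other docetaxel inputs, while Ndc80, at 3 counts, and Pttg1, at 2 counts, were close to absent. The heat map of input levels shows this library as a column of strong reds and blues.

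**Figure D1:**
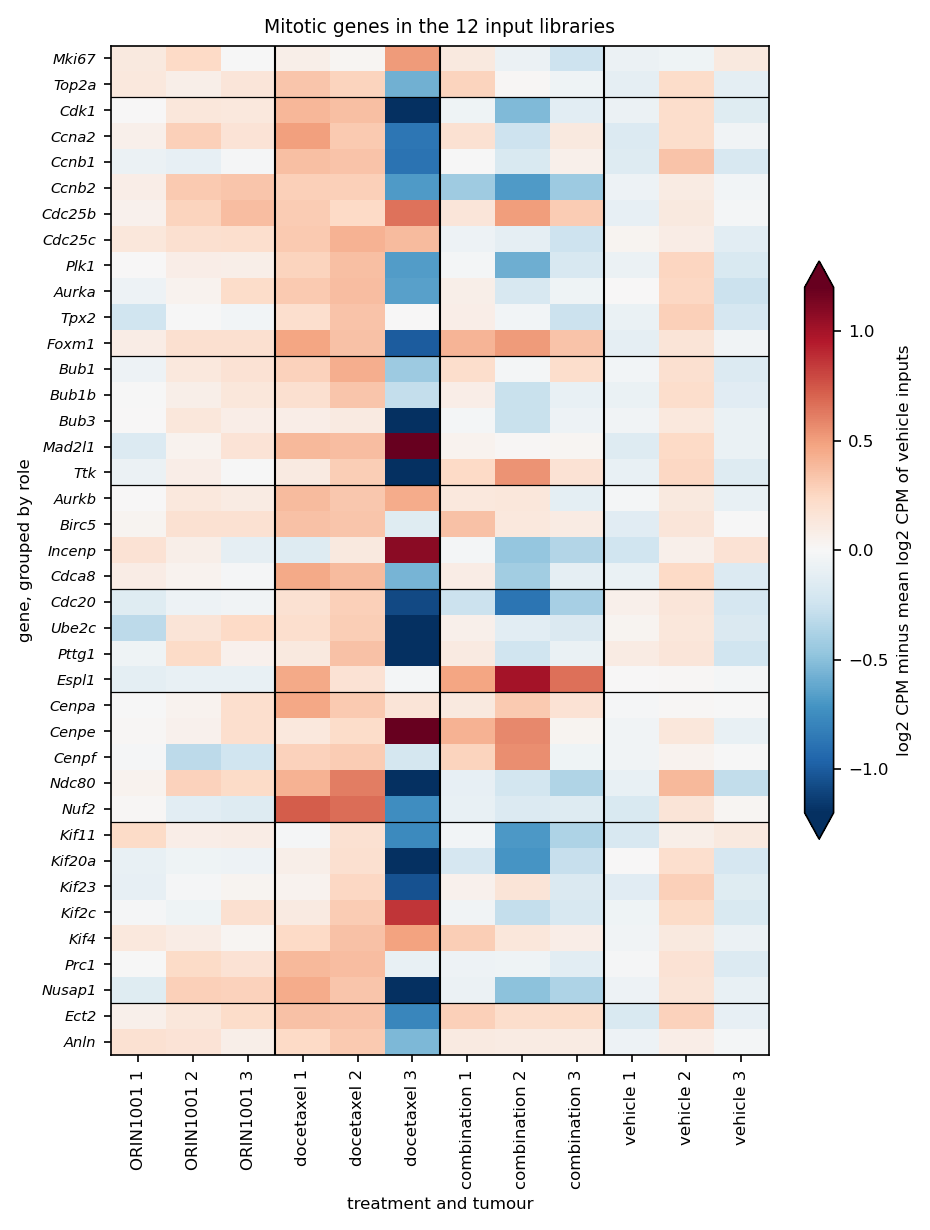
Heat map of the 39 genes (rows, grouped by role) in the 12 input libraries (columns), as log2 CPM less the mean log2 CPM of the vehicle inputs. Docetaxel tumours 1 and 2 are above the vehicle mean for most genes, docetaxel tumour 3 departs in both directions, and Espl1 is highest in the 3 combination tumours.

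ORIN1001 alone was set against vehicle to ask what blocking the IRE1α ribonuclease does to the program. No mitotic gene passed the edgeR quasi-likelihood test at an adjusted p of 0.05, and 0 reached an unadjusted p of 0.05 (2.44% of all genes higher and 1.99% lower did); DESeq2 and limma-voom also called 0. Over all genes 0 of 17768 passed, a background of 0%. The median log2 fold change of the set was 0.07 (−0.01 over all genes), and 30 of 39 genes were above 0, as were 47.5% of all genes. The smallest p-values belonged to Cdc25b and Cdc25c, phosphatases that switch Cdk1 on, at log2 fold changes of 0.23 ± 0.16 and 0.17 ± 0.13 (SE), and to cyclin B2 (Ccnb2) at 0.24 ± 0.21, each with an edgeR adjusted p of 1.

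Docetaxel alone was set against vehicle to ask whether a spindle poison shifts the genes of the spindle. With all 3 docetaxel tumours, 0 of 39 genes passed the edgeR adjusted p of 0.05 (0% of all genes, and 0 by DESeq2 or limma-voom), and 7 reached an unadjusted p of 0.05, all higher (4.87% of all genes). The median was 0.12, against −0.07 over all genes, and 30 of 39 genes lay above 0 (42.5% of all genes). Mad2l1, a checkpoint protein that binds Cdc20, had a log2 fold change of 1.27 ± 0.42 (SE, edgeR adjusted p = 0.426), with tumour 3 at the 390.6 CPM given above. Cdc25c was at 0.37 ± 0.13 and Aurkb, the kinase of the chromosomal passenger complex, at 0.38 ± 0.14 (edgeR adjusted p = 0.428 for each).

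Without docetaxel tumour 3, 38 of 39 genes lay above 0, with a median log2 fold change of 0.31, against −0.03 over all 18475 genes tested, of which 47.2% lay above 0. The genes above 0 span all roles, from the entry kinases (median 0.34 over 10 genes) and the checkpoint (0.27 over 5) to the kinetochore (0.40 over 5) and the kinesins and spindle proteins (0.21 over 7). In 26 of 39 genes, or 66.7%, both remaining docetaxel inputs exceeded all 3 vehicle inputs, against 15.7% of all genes. In the same 2 docetaxel inputs endothelial markers summed to 56.05 and 44.13 CPM, against 25.54 to 40.16 CPM in vehicle inputs. Epithelial markers summed to 2613 and 2702 CPM, against 2100 to 2581 CPM. Below all vehicle inputs lay neutrophil markers (42.51 and 43.84 CPM, against 45.19 to 85.88 CPM) and T cell markers (4.46 and 4.84 CPM, against 5.49 to 7.43 CPM). So did Esr1, Pgr and Erbb2 summed (143.6 and 191.4 CPM, against 217.7 to 271.7 CPM). The part of these differences in the result was not tested. Still 0 genes passed edgeR's adjusted p of 0.05 (0% of all genes), with 19 at an unadjusted p of 0.05, all higher (6.68% of all genes). DESeq2 called 4, and its share of all genes was not counted. Nuf2, a subunit of the kinetochore complex that grips microtubules (chr1:169497934-169531464, all coordinates of GRCm38.p6), had the smallest p. It had 58.95 and 56.71 CPM in docetaxel tumours 1 and 2 and 21.28 CPM in docetaxel tumour 3, against 31.57, 39.82 and 36.3 CPM in vehicle tumours. Without tumour 3 its log2 fold change was 0.70 ± 0.12 (edgeR adjusted p = 0.106), followed by Foxm1, the transcription factor of the program, at 0.42 ± 0.11, and Cenpa, the histone H3 variant of centromeres, at 0.40 ± 0.11 (adjusted p = 0.201 for each). With 2 docetaxel tumours left, and the level of tumour 3 on the other side for many genes, the direction rests on those 2 libraries.

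**Figure D2:**
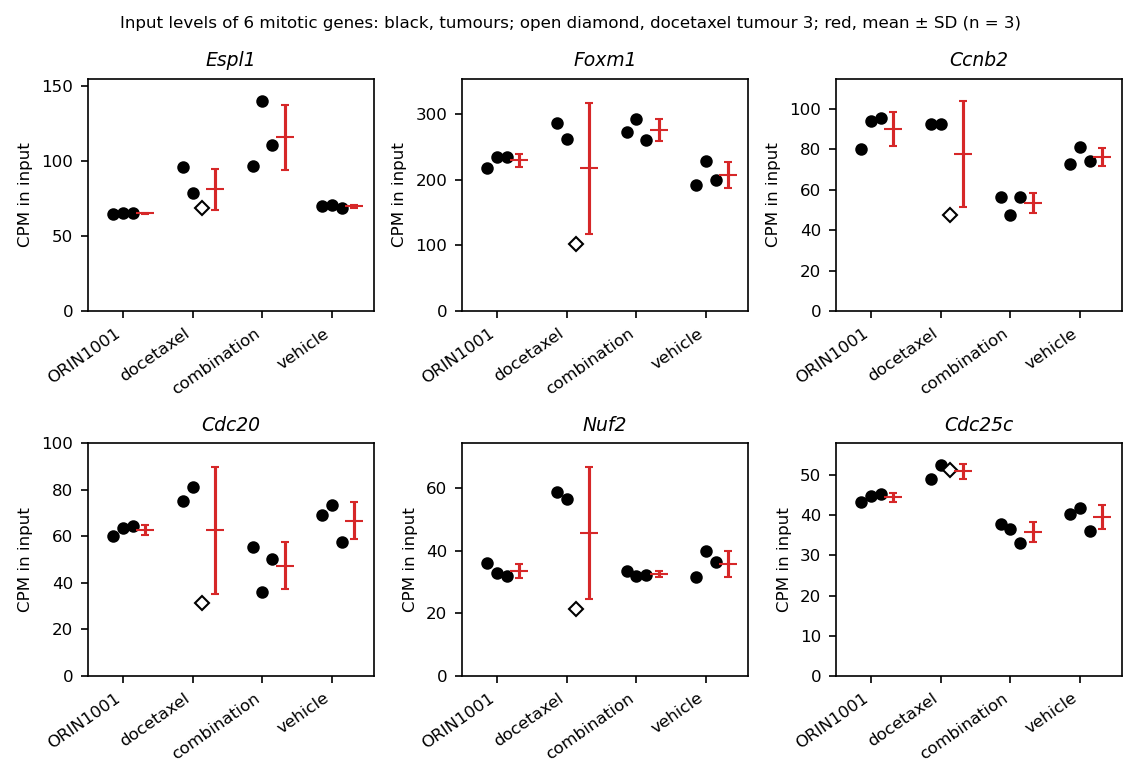
Input levels in CPM of 6 mitotic genes that passed the test in a comparison with the combination, with or without docetaxel tumour 3, by treatment. Points are tumours, the open diamond is docetaxel tumour 3, and red bars are mean and SD over 3 tumours. The 3 combination tumours are highest for Espl1 and lowest for Ccnb2, where docetaxel tumour 3 overlaps them.

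The combination was set against vehicle to ask how both drugs together shift the program. Espl1, the gene of separase (chr15:102296254-102324357), was the 1 gene of the 39 that passed, and it rose; 4.77% of all genes passed (2.8% higher). It had 96.94, 139.8 and 110.7 CPM in combination tumours, against 70.06, 70.79 and 69.03 CPM in vehicle tumours. All combination inputs lay above all vehicle inputs, as they did for 22% of all genes. The log2 fold change was 0.73 ± 0.16 (SE, edgeR adjusted p = 0.0404). ORIN1001 tumours had 64.69, 65.56 and 65.56 CPM and docetaxel tumours 95.89, 78.97 and 68.86 CPM, so docetaxel tumour 1 lay just below the lowest combination tumour. The call is close to the threshold and was lost when vehicle 1, vehicle 2, vehicle 3, any ORIN1001 tumour, docetaxel 2, combination 2 or combination 3 was left out, at log2 fold changes of 0.59 to 0.75 in those fits; without docetaxel 3 it held, at 0.74 ± 0.13 (adjusted p = 0.00852).

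The rest of the program showed no common direction under the combination. The median log2 fold change of the 39 genes was −0.07 (−0.03 over all genes), with 16 above 0 and 23 below (47.8% of all genes were above). Among entry regulators Cdk1 was at −0.23 ± 0.37 and Ccnb1 at −0.06 ± 0.26, and among checkpoint genes Bub1 was at 0.13 ± 0.20 and Mad2l1 at 0.02 ± 0.41 (SE, edgeR adjusted p of 0.718 to 0.988). Mki67 was at −0.06 ± 0.18 and Aurkb at 0.05 ± 0.13 (adjusted p of 0.864 and 0.833). Of the APC/C pathway, Cdc20, its activator, was at −0.49 ± 0.27 and Ube2c, its ubiquitin-conjugating enzyme, at −0.08 ± 0.47 (adjusted p of 0.262 and 0.933). Cenpa was at 0.20 ± 0.14, the spindle motor Kif11 at −0.35 ± 0.23 and the cytokinesis scaffold Anln at 0.10 ± 0.19 (adjusted p of 0.35, 0.36 and 0.776). With RLE scaling Mki67 was at 0.0093 and Ccnb1 at 0.0060, and with limma-voom Aurkb was at −0.0528, so these 3 have no settled sign, and nor has Mad2l1, at −0.0034 without the filter. Docetaxel tumour 3 enters this contrast only through the filter, the scaling and the shared estimate of spread; without it, 4 genes passed (28% of all genes): Espl1 and Foxm1 higher, Ccnb2 and Cdc20 lower. Foxm1 (chr6:128362994-128375886) had 272.4, 292.7 and 260.4 CPM in combination tumours, against 191.2, 228.7 and 199.3 CPM in vehicle tumours, a log2 fold change of 0.43 ± 0.10 (edgeR adjusted p = 0.0172). Ccnb2 (chr9:70407689-70421554) had 56.41, 47.58 and 56.28 CPM in combination tumours, against 72.73, 81.11 and 74.34 CPM in vehicle tumours, at −0.49 ± 0.11 (adjusted p = 0.0156). Cdc20 (chr4:118432901-118437343), which overlaps Elovl1, had 55.55, 36.14 and 50.44 CPM in combination tumours, against 69.05, 73.42 and 57.72 CPM in vehicle tumours, at −0.48 ± 0.16 (adjusted p = 0.0461). None of these 3 overlapped between the groups. In the set, all combination inputs lay above all vehicle inputs in 5 of 39 genes, or 12.8%, against 22% of all genes. They lay below in 3, or 7.69%, against 25.5% of all genes. A share of 4 in 39 (10.3%) is below the 28% of all genes.

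Against docetaxel alone, the combination asks what adding ORIN1001 does. With all tumours 1 gene passed, Cdc25c, which fell; 7.43% of all genes passed (1.96% lower). Cdc25c, whose span overlaps Gm3550, had 37.73, 36.62 and 33.12 CPM in combination tumours, against 48.97, 52.5 and 51.33 CPM in docetaxel tumours, a log2 fold change of −0.51 ± 0.13 (edgeR adjusted p = 0.0424), and docetaxel tumour 3 lay between the other 2 docetaxel tumours for this gene. The call was lost when any tumour other than docetaxel 3 was left out. Without docetaxel tumour 3, 11 genes passed, all lower in the combination (28.2%, where 11.3% of all genes were lower and 23.8% passed), the median was −0.32 (close to 0 over all genes), and in 27 of 39 genes, or 69.2%, all combination inputs lay below both docetaxel inputs, against 28.2% of all genes. The 6 with the largest falls were Nuf2 at −0.83 ± 0.12, Ccnb2 at −0.79 ± 0.12, Ndc80, the partner of Nuf2, at −0.74 ± 0.21, Cdc20 at −0.72 ± 0.18, the spindle protein Nusap1 at −0.69 ± 0.17 and Cdk1 at −0.59 ± 0.16 (SE, edgeR adjusted p of 0.0108 to 0.0282). The others were Cdc25c, Plk1, Cdca8, Kif20a and Prc1. By role these were 4 of 10 entry regulators, 1 of 4 passenger complex genes, 1 of 4 anaphase genes, 2 of 5 kinetochore genes, 3 of 7 spindle genes and none of the 5 checkpoint genes. This count rests on docetaxel tumours 1 and 2: it was 0 without tumours 1 and 3 and 2 without tumours 2 and 3. This comparison and docetaxel against vehicle share the docetaxel libraries, so an opposite sign in them is not independent.

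**Figure D3:**
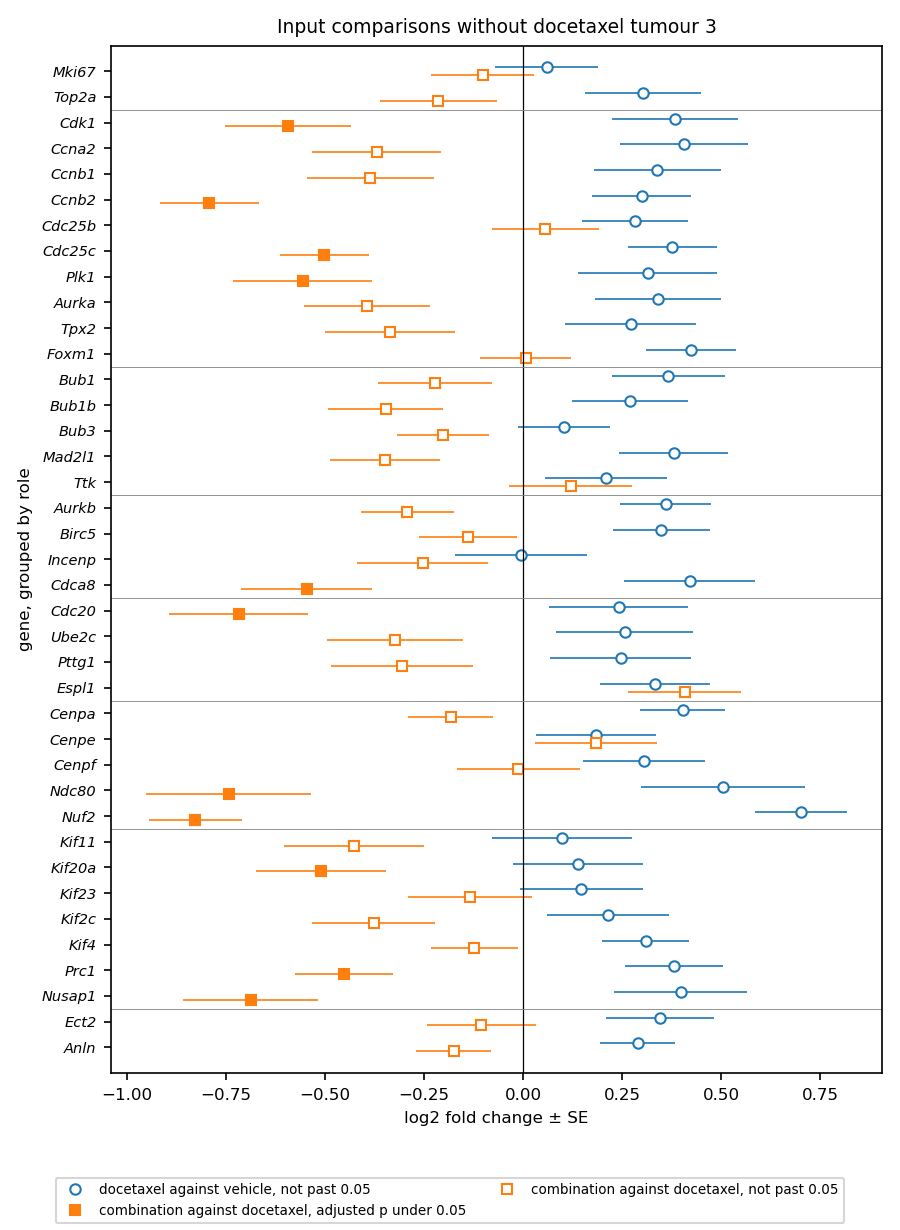
Log2 fold changes with SE of the 39 genes without docetaxel tumour 3, for docetaxel against vehicle (blue circles) and the combination against docetaxel (orange squares), which share the docetaxel libraries. Filled symbols passed an edgeR adjusted p of 0.05; 38 blue circles lie above 0 and the 11 filled squares all lie below 0.

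Against ORIN1001 alone, the combination asks what adding docetaxel does. Espl1 rose, at 0.83 ± 0.16 (edgeR adjusted p = 0.0191), and Ccnb2 fell, at −0.75 ± 0.21 (adjusted p = 0.0402), 2 of 39 genes where 12.6% of all genes passed. Ccnb2 had 80.44, 94.2 and 95.71 CPM in ORIN1001 tumours, all above the combination values given above. Both calls were lost without ORIN1001 2, ORIN1001 3, combination 2 or combination 3, and that of Ccnb2 also without any vehicle tumour, ORIN1001 1 or combination 1. Without docetaxel 3, 6 genes passed (35.2% of all genes): Espl1 and the kinetochore gene Cenpf (0.48 ± 0.14) higher, and Ccnb2, Kif11 (−0.46 ± 0.16), Nusap1 (−0.44 ± 0.15) and Cdc25c (−0.30 ± 0.10) lower. The interaction, which asks whether the drugs together differ from adding up their separate effects, had a median of −0.26, against one close to 0 over all genes. edgeR called 0 of 39 (0% of all genes), with 1 higher and 2 lower at an unadjusted p of 0.05 (11% and 6.62% of all genes). DESeq2 called 1 and limma-voom 11, and their shares of all genes were not counted. Cdc25c was at −0.68 ± 0.19, Ccnb2 at −0.83 ± 0.30 and Espl1 at 0.60 ± 0.23 (edgeR adjusted p of 0.108, 0.181 and 0.213). Without docetaxel 3, 4 genes passed, all lower (3.22% of all genes were lower and 8.27% passed): Ccnb2 at −1.04 ± 0.17, Nusap1 at −0.84 ± 0.23, Nuf2 at −0.73 ± 0.16 and Cdc25c at −0.67 ± 0.15 (adjusted p of 0.0369 to 0.0479).

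Other lists of cell cycle genes were read from the same fits. In combination against vehicle with all tumours, 4.77% of all genes passed (2.8% higher and 1.98% lower). In that comparison Tk1, a thymidine kinase, was the 1 of 28 S phase genes to pass, at −0.84 ± 0.17 (SE, edgeR adjusted p = 0.0348). Cyclin D2 (Ccnd2) was the 1 of 16 G1 regulators, at 1.54 ± 0.23 (adjusted p = 0.0275). Of 47 other mitotic genes the kinesin Kif14 passed, at 0.55 ± 0.14, and of 15 APC/C genes Anapc2 and Anapc13 passed, at −0.54 ± 0.13 and −1.02 ± 0.24. None of 7 inhibitors of cyclin-dependent kinases, 16 cohesin and condensin genes or 8 MuvB and DREAM genes passed. Against docetaxel, without tumour 3, 16 of the 47 other mitotic genes and 8 of the 28 S phase genes were lower in the combination and none was higher, where 11.3% of all genes were lower and 12.5% higher. T cell markers summed to 14.7 to 26.1 CPM in combination inputs, against 2.504 to 4.84 CPM in docetaxel inputs and 5.49 to 7.43 CPM in vehicle inputs, and neutrophil markers to 19.1 to 29.3 CPM, against 26.3 to 43.8 CPM with docetaxel and 45.2 to 85.9 CPM with vehicle. The epithelial sum was 1714 to 2357 CPM in combination inputs, 2051 to 2702 CPM in docetaxel inputs and 2100 to 2581 CPM in vehicle inputs. The part of these cells in the results was not tested.

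The J2 libraries ask which of these transcripts are recovered with an antibody to double-stranded RNA, relative to the input of the same tumour. In vehicle tumours 19 of 39 genes, or 48.7%, were lower in J2 than in input and 5 were higher, where 21.1% and 20.2% of all genes were and 41.4% passed; the median log2 ratio was −0.49, against one close to 0 over all 17338 genes. In ORIN1001 tumours 10 were lower and 5 higher, where 14.9% of all genes were lower and 13.2% higher (28.1% passed). The median of the set was −0.29 there, against −0.06 over all genes. In docetaxel tumours 5 were lower and 3 higher, or 20.5% in all, which is below the 23.9% of all genes that passed. Without docetaxel tumour 3, 19 were lower and 6 higher, where 20.9% of all genes were lower and 18.9% higher (39.8% passed). The median was then −0.43, against −0.29 with that tumour, and −0.02 over all genes in either fit. In combination tumours 12 were lower and 7 higher, where 20.5% of all genes were lower and 16.3% higher (36.8% passed). The median of the set was −0.20, near the −0.13 over all genes. By tumour, its median ratio was −0.51, 0.02 and −0.01 in combination tumours 1, 2 and 3, against −0.07, −0.01 and −0.03 over all genes. The counts moved when a tumour of the same group was left out. Called genes in both directions were then 4 to 6 in ORIN1001 tumours and 9 to 11 in vehicle tumours. In docetaxel tumours they were 0 without tumour 1, 1 without tumour 2 and 25 without tumour 3. In combination tumours they were 15 without tumour 1, 10 without tumour 2 and 7 without tumour 3. Among these fits the share of all genes was counted only without docetaxel tumour 3, at the 39.8% given above.

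The lowest ratios in vehicle tumours belonged to Ube2c, Plk1, Cdc20, Cdca8, Kif20a and Ndc80. Ube2c (chr2:164769929-164772902) had 29.34, 31.76 and 31.27 CPM in vehicle J2 libraries, against 106.6, 114.4 and 91.91 CPM in vehicle inputs. Its log2 ratio was −1.31 to −1.41 in ORIN1001 tumours, −1.46 and −1.61 in docetaxel tumours 1 and 2, −1.46 to −1.94 in combination tumours and −1.42 to −1.78 in vehicle tumours. Docetaxel tumour 3, with 11 input counts of Ube2c, gave 1.95. Plk1, the polo-like kinase, had a log2 ratio of −1.57 ± 0.23 in vehicle tumours, Cdc20 of −1.56 ± 0.22, Cdca8 (borealin) of −1.55 ± 0.23, the kinesin Kif20a of −1.08 ± 0.23 and Ndc80 of −1.03 ± 0.31 (SE, edgeR adjusted p of 0.000253 to 0.0165).

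A smaller group ran the other way in vehicle tumours: Foxm1 at 0.94 ± 0.20, Cenpa at 0.82 ± 0.22, Ect2, the exchange factor that starts cytokinesis, at 0.76 ± 0.21, Cdc25b at 0.72 ± 0.22 and Espl1 at 0.54 ± 0.21 (SE, edgeR adjusted p of 0.00243 to 0.0489). These same 5 genes were the ones higher in J2 over the average of the 4 treatments, where 19 were lower (25% of all genes were higher, 30% lower, 55% in all). Mad2l1, at ratios of 0.85, 0.76 and 0.87 in vehicle tumours, passed there only in the fit without docetaxel tumour 3. In that docetaxel tumour its ratio was −3.06. Foxm1 had log2 ratios of 1.25, 0.92 and 1.21 in ORIN1001 tumours, 1.16, 0.73 and 1.14 in docetaxel tumours, 0.88, −0.04 and 0.81 in combination tumours and 1.07, 1.02 and 0.72 in vehicle tumours. It was thus above 0 in every tumour but combination tumour 2. Espl1 was above 0 in all 12 tumours and Prc1, the bundler of the central spindle, below 0 in all 12, which held for 2.83% and 3.76% of all genes. In the 8 ORIN1001, docetaxel and vehicle tumours other than docetaxel tumour 3, 25 of 39 genes were below 0 throughout (26.4% of all genes) and 7 above (21.2%), the 7 being Cdc25b, Foxm1, Bub1, Mad2l1, Espl1, Cenpa and Ect2. Over the 39 genes of the vehicle tumours, the log2 ratio had a Spearman correlation of 0.35 with the span of the gene and 0.45 with its input level, as a description across genes that share the same libraries.

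**Figure D4:**
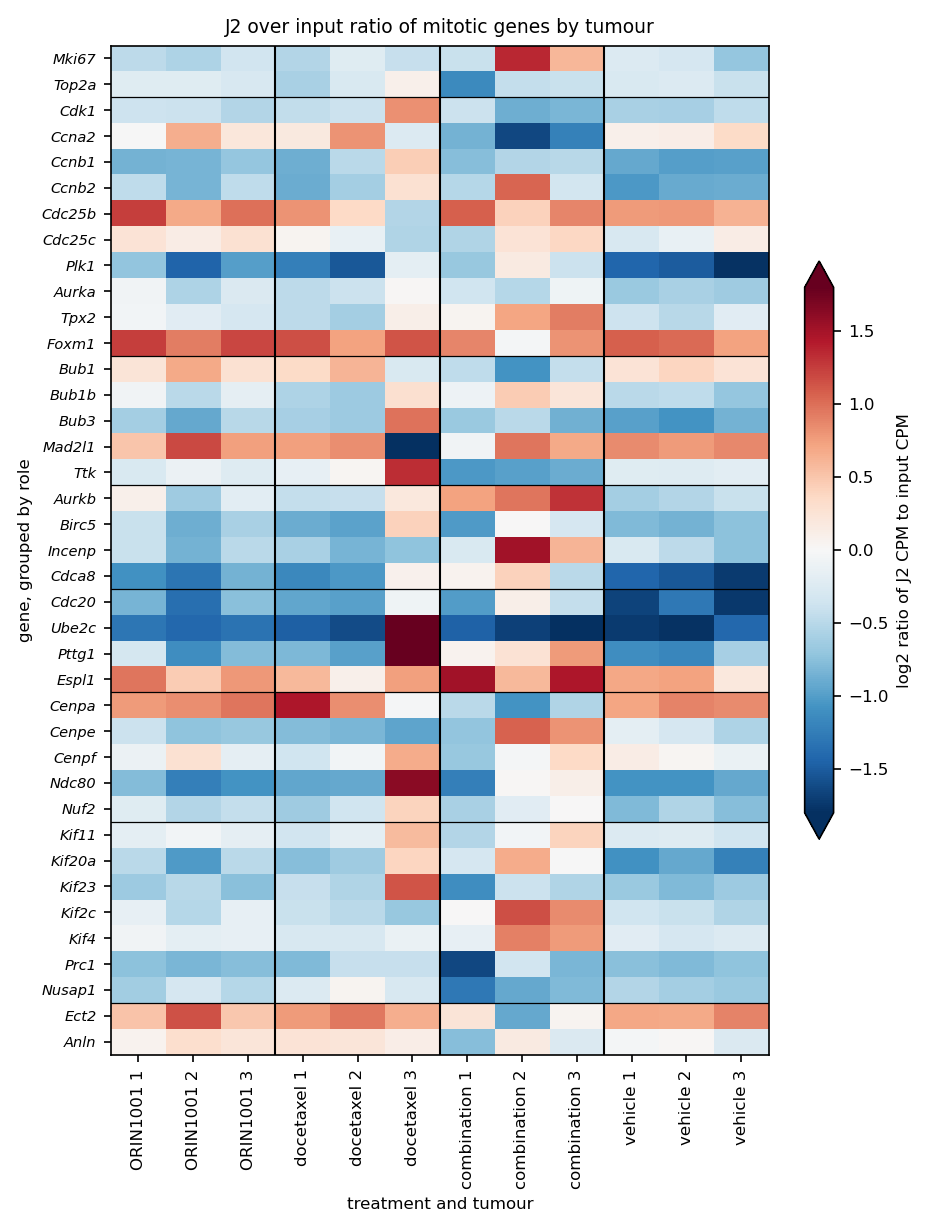
Heat map of the log2 ratio of J2 to input for the 39 genes (rows, grouped by role) in each of the 12 tumours (columns). Ube2c is below 0 in all tumours but docetaxel tumour 3, Espl1 is above 0 in all 12, and the combination columns differ from the vehicle columns for the passenger complex genes Aurkb and Cdca8.

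Whether treatment changed this recovery was tested as the difference of the J2 to input ratio between treatments. For ORIN1001 against vehicle 0 of 39 genes passed (0% of all genes), 0 reached an unadjusted p of 0.05, and DESeq2 called 0. The smallest p-values were those of Cdc20, at a difference of 0.58 ± 0.31, Plk1, at 0.52 ± 0.32, and Cdca8, at 0.47 ± 0.32 (SE, log2 scale, edgeR adjusted p of 1). For docetaxel against vehicle 0 of 39 passed (0% of all genes, and 0 by DESeq2), with 4 at an unadjusted p of 0.05, all higher (2.2% of all genes), and Cdc20 was at 0.83 ± 0.32, Cdca8 at 0.74 ± 0.32 and Bub3 at 0.72 ± 0.33 (edgeR adjusted p of 0.914). Without docetaxel tumour 3 that comparison also had 0 calls. Its median was then 0.04 (−0.05 over all genes), against 0.26 with that tumour (0.05 over all genes).

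For the combination against vehicle 13 of 39 genes passed, or 33.3%, which is near the 29.9% of all genes that passed; 9 were higher and 4 lower (12.7% and 17.1% of all genes), and without docetaxel tumour 3 the counts were 14 and 5 (41.2% of all genes). Aurkb (chr11:69045624-69051664), depleted in J2 from vehicle tumours, was enriched in J2 from combination tumours: its log2 ratio was 0.72, 0.97 and 1.30 in combination tumours, against −0.62, −0.53 and −0.40 in vehicle tumours, a difference of 1.52 ± 0.26 (SE, edgeR adjusted p = 0.00162). The J2 levels behind it were 74.45, 89.01 and 92.16 CPM in combination tumours, from 140, 203 and 921 counts, against 26.78, 32.58 and 29.67 CPM in vehicle tumours. Cdca8 (chr4:124918465-124936917), its partner in the passenger complex, had ratios of 0.07, 0.42 and −0.48 in combination tumours, against −1.42, −1.52 and −1.72 in vehicle tumours, a difference of 1.54 ± 0.32 (adjusted p = 0.0039). Neither gene's groups overlapped. The share of all genes with this pattern was not counted, so it is not read as particular to these genes. Incenp of the same complex also passed, at a difference of 1.13. Its combination ratios of −0.28, 1.51 and 0.62 touch the vehicle ratios of −0.27, −0.48 and −0.73. Birc5, also of this complex, did not pass. Its ratios were −1.01, 0.01 and −0.30 in combination tumours, overlapping the −0.80, −0.84 and −0.73 of vehicle tumours. Of the other genes that were higher, Plk1 was at 1.27 ± 0.33, Kif20a at 1.19 ± 0.32 and Cdc20 and the microtubule depolymerase Kif2c at 1.13 ± 0.32 and 1.13 ± 0.28 (adjusted p of 0.00877 to 0.0161), and Tpx2 and Kif4 also passed.

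Cenpa (chr5:30666877-30674837) went the other way, with ratios of −0.48, −1.07 and −0.54 in combination tumours, against 0.71, 0.90 and 0.85 in vehicle tumours, a difference of −1.51 ± 0.32 (SE, edgeR adjusted p = 0.00373). Cyclin A2 (Ccna2), which shares part of its span with Exosc9, had ratios of −0.85, −1.64 and −1.22 in combination tumours, against 0.09, 0.12 and 0.35 in vehicle tumours, a difference of −1.42 ± 0.31 (adjusted p = 0.00475). For both genes every combination tumour lay below every vehicle tumour. How many of all genes did so was not counted, and the pattern is not read as particular to them. Ect2 was at −0.96 ± 0.30 and Bub1 at −0.93 ± 0.27 (adjusted p of 0.0278 and 0.0192).

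**Figure D5:**
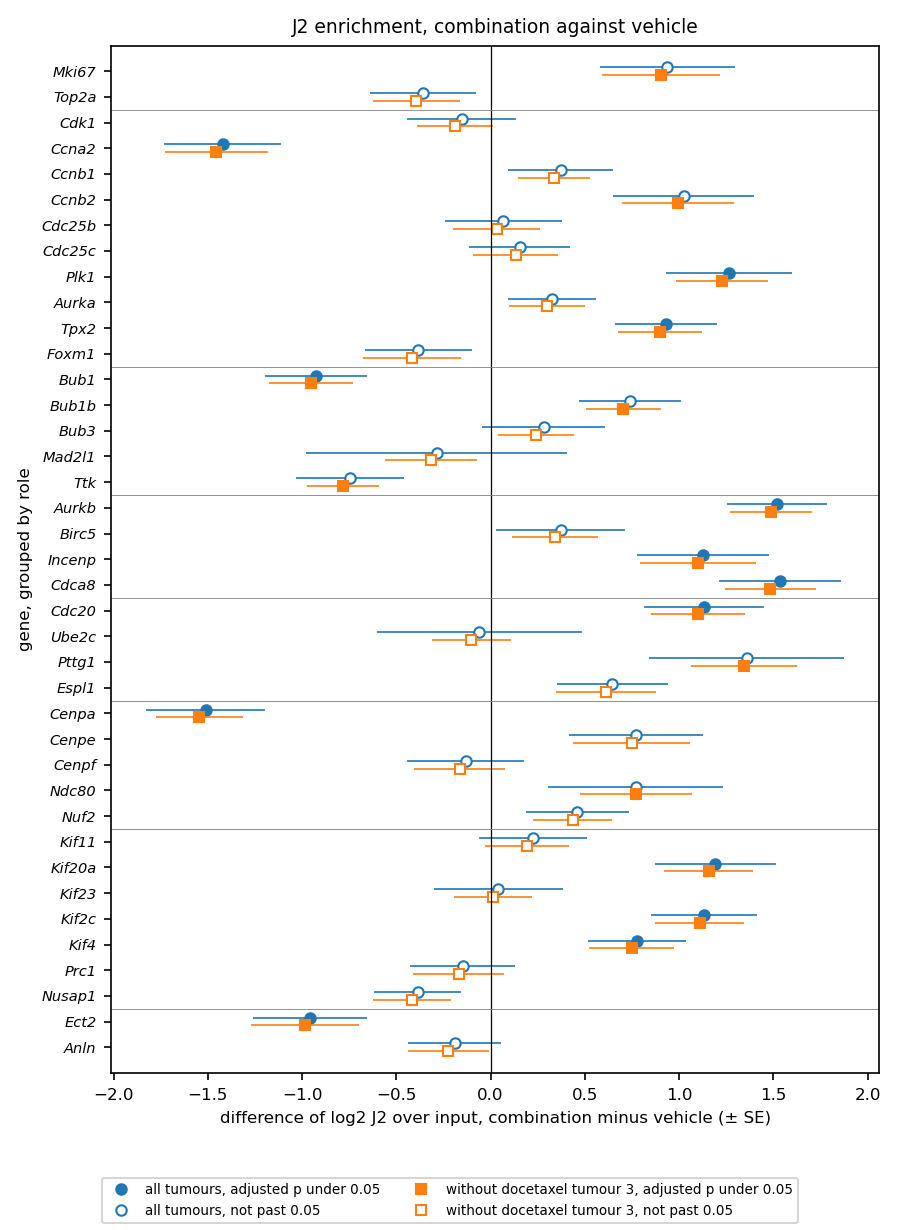
Differences in the log2 ratio of J2 to input between combination and vehicle tumours, with SE, for the 39 genes. Blue circles are all tumours and orange squares leave out docetaxel tumour 3. Filled symbols passed an edgeR adjusted p of 0.05, 9 above 0 and 4 below with all tumours, 14 and 5 without docetaxel tumour 3.

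These J2 differences came with differences in the libraries: the share of counts at ribosomal RNA loci and the depth given above, and 5 of 7 epithelial markers, which were also higher in the same test. Fibroblast markers summed to 744.5, 2934 and 1547 CPM in combination J2 libraries, against 186.8 to 216.1 CPM in vehicle J2 libraries, and to 160.1 to 408.9 CPM in combination inputs, against 145.7 to 161.9 CPM in vehicle inputs. Of the 4 fibroblast markers Col1a1, a collagen gene, passed the J2 test, at 2.26 ± 0.47 (SE, edgeR adjusted p = 0.00365), and the median of the 4 was 0.08. The part of these library and marker differences in the result was not tested. With ribosomal and mitochondrial genes removed before scaling the count of called genes was again 13. That removal leaves the counts of the other genes as they were, so it cannot test the part of depth or of ribosomal RNA. The count was 8 without vehicle tumour 1, 2 or 3 and 7 without combination tumour 2, where shares of all genes were not counted. With all tumours 12.7% of all genes were higher and 17.1% lower in this test. Of 28 S phase genes 15 were higher and 2 lower, among them Gins1 at 1.84 ± 0.40 and Mcm5 at 1.33 ± 0.29 (SE, edgeR adjusted p of 0.0048 and 0.00425). Of 16 cohesin and condensin genes 2 were higher and 8 lower, among them the cohesin subunits Rad21 at −1.31 ± 0.24 and Stag2 at −1.43 ± 0.29 (adjusted p of 0.00204 and 0.00309). Of 47 other mitotic genes 7 were higher and 6 lower, which is near the shares of all genes, with Spc24, a partner of Ndc80 and Nuf2, at 2.86 ± 0.35 (adjusted p = 0.00101).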

How the data were processed

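Total RNA (input) and RNA pulled down with the J2 antibody were sequenced from 12 tumours, 3 per treatment. The deposited table holds raw counts per gene made by the authors; fastp 0.23.2, STAR 2.7.3a and featureCounts 2.0.3, with mm10, are named in the submitters' processing notes. For the strand setting and reads with several matches, the notes are silent (not given in the sources used here), so the 15 genes that overlap another RefSeq gene (Top2a, Ccna2, Cdc25c, Aurka, Tpx2, Foxm1, Incenp, Cdc20, Kif11, Kif20a, Kif4, Prc1, Nusap1, Ect2, Anln) or have pseudogenes (Ccnb1, Ccnb2, Kif4) have uncertain counts. Of 53465 rows, 53274 were matched to a RefSeq symbol (GRCm38.p6), 50604 by exact identifier version, and of the 39 genes 33 by exact version.

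Counts were tested with edgeR 4.0.16 (quasi-likelihood F test, TMM scaling, filterByExpr with a minimum count of 10 and total of 15, Benjamini-Hochberg adjustment over all genes tested, threshold 0.05). Inputs were fitted together over the 12 libraries. J2 was compared with input over 24 libraries with the tumour as a block, since the labels pair both libraries of a tumour; their deviations correlated by over 0.1 in 10 of 12 tumours. CPM use TMM-scaled library sizes, over the 12 inputs for input levels and over all 24 libraries for J2 levels and for J2 to input ratios. DESeq2 1.42.0, limma 3.58.1 (voom with sample weights), other scaling, no filter and each tumour left out were alternatives. So were a block of replicate numbers for inputs and no tumour block for J2. The fits were tested on simulated data. No pair of replicates agreed within counting noise. The labels call the 3 tumours of a group biological replicates.

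The members and gene lists were chosen with earlier results of these data known. Fold changes with SE and adjusted p are given for up to 6 rises and 6 falls past the threshold per comparison, or the 3 smallest p where none passed, and for the combination against vehicle also 1 or 2 genes per role; other lists give up to 3 genes.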

Additional observations from a re-analysis of the deposited data

Results flagged for a closer look

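For 13 of 39 genes, or 33.3%, the J2 to input ratio differed between combination and vehicle tumours by the test of the difference itself. This share is near the 29.9% of all genes that passed. The log2 differences were 1.54 for Cdca8, 1.52 for Aurkb, 1.27 for Plk1, 1.19 for Kif20a, 1.13 for Cdc20, Kif2c and Incenp, 0.93 for Tpx2 and 0.78 for Kif4, and −0.93 for Bub1, −0.96 for Ect2, −1.42 for Ccna2 and −1.51 for Cenpa. Securin (Pttg1) had a difference of 1.33, picked out because its ratio was above 0 in every combination tumour and below 0 in every vehicle tumour. That pattern itself was not tested; the fit over all genes gave 1.36 ± 0.52 (SE, edgeR adjusted p = 0.0603), and without docetaxel tumour 3 it passed, at 1.34 ± 0.28 (adjusted p = 0.0013).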

How the results depend on the processing

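Every tumour was left out in turn, and settings that join docetaxel tumour 3 left out with another choice were chosen after seeing the data. With 1 tumour left out, the members called ranged from 0 to 0 for ORIN1001 and for docetaxel against vehicle in input, with medians of 0.02 to 0.16 and −0.03 to 0.31. They ranged from 0 to 4 for the combination against vehicle, 0 to 11 against docetaxel, 0 to 6 against ORIN1001 and 0 to 4 for the interaction, with medians of −0.16 to 0.06, −0.32 to −0.077, −0.20 to −0.04 and −0.37 to −0.14. With docetaxel tumour 3 and 1 other left out, these counts were 0 to 0 and 0 to 0 for the single drugs, then 2 to 7, 0 to 13, 2 to 8 and 0 to 9, and the medians 0.0076 to 0.17, 0.26 to 0.41, −0.18 to 0.061, −0.40 to −0.28, −0.18 to −0.04 and −0.47 to −0.32. For J2 against input the members called were 22 to 27 on average over treatments, 4 to 22 in ORIN1001, 0 to 25 in docetaxel, 7 to 21 in combination and 9 to 25 in vehicle tumours. The change in the ratio gave 0 to 0 for ORIN1001, 0 to 0 for docetaxel and 7 to 19 for the combination. Shares of all genes were counted only with all tumours and without docetaxel tumour 3 alone.

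Without the filter on low counts, members called were 0 for the combination against vehicle, 0 against docetaxel and 1 against ORIN1001. RLE scaling gave 0 against docetaxel. DESeq2 gave 4 against docetaxel and 1 for the interaction, and with docetaxel 3 left out 4 for docetaxel against vehicle, 5 for the combination against vehicle, 12 against docetaxel, 7 against ORIN1001 and 8 for the interaction; for J2 it gave 24 in ORIN1001 and 25 in docetaxel tumours. limma-voom gave 5, 19 and 11 for the combination against vehicle, docetaxel and ORIN1001, and 11 for the interaction, with a median of −0.43. The replicate numbers did not pair the inputs (3 of 18 pairs of inputs sharing a number correlated by over 0.1); with the replicate block the combination had 0 calls against vehicle, 0 against docetaxel and 1 against ORIN1001, and 3 and 5 against vehicle and docetaxel with docetaxel 3 left out. Without the tumour block, so without the pairing of J2 and input, J2 had 3 calls in docetaxel tumours and 10 in combination tumours. The change with the combination then had 8. Shares of all genes called were not counted under these settings, and the cause of these moves was not tested.

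Near-zero changes of the combination against vehicle turned sign: Mki67 to 0.0093 and Ccnb1 to 0.0060 with RLE scaling and DESeq2, Ccnb1 to 0.0668 and Aurkb to −0.0528 with limma-voom, and Mad2l1 to −0.0034 without the filter. With tumours left out they ranged from −0.1664 to 0.0229 for Mki67, −0.1782 to 0.1283 for Ccnb1, −0.0707 to 0.1384 for Mad2l1 and −0.0145 to 0.1291 for Aurkb. Of the other single-gene values with a tumour left out, 1233 kept direction and side of the threshold, 120 lost the call and 15 gained it; under other settings the counts were 563, 29 and 7. Depth limits the docetaxel tumour 3 input (3239 counts over the 39 genes) and the combination J2 libraries.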
